A study of Mus musculus with 9 samples.

Results

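Histone acetyltransferases, the enzymes that put acetyl groups on histone lysines, were followed in mouse embryonic stem (ES) cells as 10 genes: Kat8, Kat5, Kat6a, Kat6b, Kat7, Kat2a, Kat2b, Crebbp, Ep300 and Hat1. They were chosen by gene name from the 24044 named rows of the expression table, and each was found on 1 row. All 10 were among the 12711 genes that reached an FPKM (fragments per kilobase of transcript and library size) of 1 in at least 3 of 9 libraries and were tested.

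RNA came from 3 ES lines, named E14, v6.5 and Oct4 GiP. Oct4 GiP reports the activity of Oct4, a pluripotency factor. Each line spent 2 weeks on a gelatin coating in Serum, in 2i or in the Paused condition, so that each condition held 3 libraries, 1 per line. Paused cells received 200 nM INK128, an inhibitor of the mTor kinase. The labels give no composition for Serum or 2i. The name 2i usually stands for a pair of inhibitors, of the kinases MEK and GSK3. The basal medium of the Paused cells is not named either. The labels name no engineered change in a histone acetyltransferase for any line, and the 3 lines stand in for biological replicates. The p-values of the limma fits below therefore weigh a condition difference against its spread over these lines. That spread includes the noise of single libraries. The exact permutation p-values of the paralog ratios compare 3 libraries against 3 and do not use the line.

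Acetyl groups neutralise the charge of histone tails and are read by bromodomain proteins, and they mark active promoters and enhancers. The acetyltransferases fall into families. The MYST family holds Kat8, which acetylates lysine 16 of histone H4, Kat5 of the NuA4/TIP60 complex, and Kat6a, Kat6b and Kat7, which work with BRPF and JADE scaffold proteins. The paralogs Kat2a and Kat2b of the GNAT family work in the SAGA and ATAC coactivator complexes on histone H3. Crebbp and Ep300 are paralogous coactivators of enhancers. Hat1 acetylates newly made histone H4 before it is laid into chromatin. All of them use acetyl-CoA, and histone deacetylases and sirtuins remove the mark.

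Of the 10 genes, 9 had a promoter sequence in the RefSeq table (GRCm38.p6), taken here as the 250 bases before the RefSeq start. The windows of Kat8, of Kat2a and of Kat2b are shown, because the Kat8 transcript and the Kat2a to Kat2b ratio are described in detail below. Each is cut where the first exon of the gene begins in the GENCODE annotation, runs 5′ to 3′ along the gene's strand, and has CG dinucleotides in capitals.
Kat8, chr7:127912267-127912515, plus strand: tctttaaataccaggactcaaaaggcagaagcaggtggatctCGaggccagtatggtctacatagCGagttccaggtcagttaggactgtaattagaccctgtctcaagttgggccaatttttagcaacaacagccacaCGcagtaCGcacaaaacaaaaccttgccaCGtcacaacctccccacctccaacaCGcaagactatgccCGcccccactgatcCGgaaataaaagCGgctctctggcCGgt
Kat2a, chr11:100712468-100712717, minus strand: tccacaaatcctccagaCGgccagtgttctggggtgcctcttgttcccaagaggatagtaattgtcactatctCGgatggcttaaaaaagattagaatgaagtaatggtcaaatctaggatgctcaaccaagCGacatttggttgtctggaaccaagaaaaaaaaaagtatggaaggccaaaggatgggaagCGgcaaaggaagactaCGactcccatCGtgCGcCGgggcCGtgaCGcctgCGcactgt
Kat2b, chr17:53566721-53566860, plus strand: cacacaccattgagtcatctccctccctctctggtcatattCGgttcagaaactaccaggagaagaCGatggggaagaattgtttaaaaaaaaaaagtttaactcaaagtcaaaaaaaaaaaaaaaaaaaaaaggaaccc
The full windows held 10 CG dinucleotides at Kat8, 11 at Kat2a and 6 at Kat2b, against a median of 6 over 27025 promoters. Crebbp had the most of the 9, at 44. The windows of Crebbp, Ep300, Hat1 and Kat6b lie wholly past the start of the gene in GENCODE, so that they are upstream of the RefSeq start only. The E-box CACGTG, which reads alike on both strands, was found in the windows of Hat1 and Kat5 and in 6.04% of all promoters. In the windows of the other 7 genes these letters were absent.

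Only FPKM values were at hand, without read counts, so library depth is unknown and intervals for counting error are left out. Named genes at FPKM of 1 or more numbered 11709 to 12112 per library. A second column per library, the authors' normalized expression, equals FPKM times 1 constant per library, with means of 3.59 ± 0.17 (Serum), 2.80 ± 0.36 (2i) and 1.88 ± 0.095 (Paused; SD, n = 3). There, all tested genes had a median log2 change of -0.88 for Paused against Serum, -0.33 for 2i against Serum and -0.56 for Paused against 2i. The FPKM changes given below are relative to this shift, and the value on the authors' scale stands beside printed changes of genes that turn direction. Marker lists moved with condition. The 8 markers of pluripotent ES cells summed to 2839 to 3862 FPKM in Serum, 2645 to 3262 in 2i and 3581 to 4618 in Paused, and of these Utf1 fell and Nanog and Klf4 rose in 2i against Serum (-2.25 ± 0.11, 1.53 ± 0.46 and 1.86 ± 0.52 on the log2 scale). The 7 fibroblast markers summed to 26.7 to 125 FPKM in Serum, 1.49 to 2.71 in 2i and 4.77 to 11 in Paused. Tagln carried most of the Serum sum (22.5 to 114 FPKM). Col1a1 and Thy1 averaged 3.59 and 2.53 FPKM in Serum, 0.492 and 0.502 in 2i, and 0.17 and 1.04 in Paused. Like Tagln, both were called lower than Serum in 2i and in Paused. Col1a2, Col3a1 and Postn reached at most 0.431, 0.233 and 0.0581 FPKM in any library, and Lum was listed at 0 in all 3 Serum libraries. The 7 trophoblast markers summed to 63.4 to 315, 48.6 to 73.9 and 27 to 48.9 in the same order, with Elf5 at most 0.059 FPKM in any library and listed at 0 in some libraries of Serum and Paused. Krt8, Krt18 and Tfap2c carried most of the Serum sum (means of 82.8, 54.2 and 29.9 FPKM). Tfap2c, Eomes, Gata3 and Elf5 had their highest means in 2i (42.9, 4.10, 0.929 and 0.0289). The primed epiblast and early differentiation markers summed to 101 to 452, 17.7 to 52.3 and 98.6 to 282. The endoderm markers summed to at most 3.59 FPKM. The neural markers summed to 88.6 to 118 in Serum, 34.3 to 99.4 in 2i and 61.4 to 79.6 in Paused. Among these, Pax6 and Sox1 rose and Nes fell in Paused against Serum (1.29 ± 0.31, 1.53 ± 0.29 and -2.04 ± 0.32 on the log2 scale). Tubb3 was not called there. The part of these cells in the results below was not tested. In bulk RNA, fewer cells of a type and less RNA per cell cannot be told apart.

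All 10 genes were expressed in every library. Hat1 stood highest, with a mean of 177 ± 34.0 FPKM over the 9 libraries (SD), above 95.3% of tested genes. Kat2a followed at 73.8 ± 9.33, Kat6b at 55.4 ± 22.3, Kat7 at 43.8 ± 4.05 and Kat5 at 28.4 ± 3.71. Ep300 averaged 24.9 ± 3.73, Kat8 23.0 ± 4.83, Kat2b 19.4 ± 6.14, Kat6a 17.0 ± 4.77 and Crebbp 16.4 ± 2.88 FPKM. FPKM is per length of transcript, so these levels can be set side by side. Only the steps from Hat1 to Kat2a and from Kat7 to Kat5 held in 9 of 9 libraries, and each other neighbour in the order stood above the next in 6 or 7 of 9. Summed over the 10 genes, FPKM was 472 ± 27.4 (Serum), 516 ± 13.2 (2i) and 450 ± 30.6 (Paused; SD, n = 3). The share of Hat1 in that sum was 42.6% in Serum, 37.6% in 2i and 30.5% in Paused. Without Hat1 the sum was 271 ± 20.2, 322 ± 20.0 and 313 ± 27.7 FPKM. On the authors' scale the sum over the 10 genes was 1700 ± 177, 1444 ± 211 and 848 ± 97.1 in that order. There, each of the 10 genes had a lower mean in Paused than in Serum. The plot of levels by library shows every value behind the FPKM means.

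**Figure D1:**
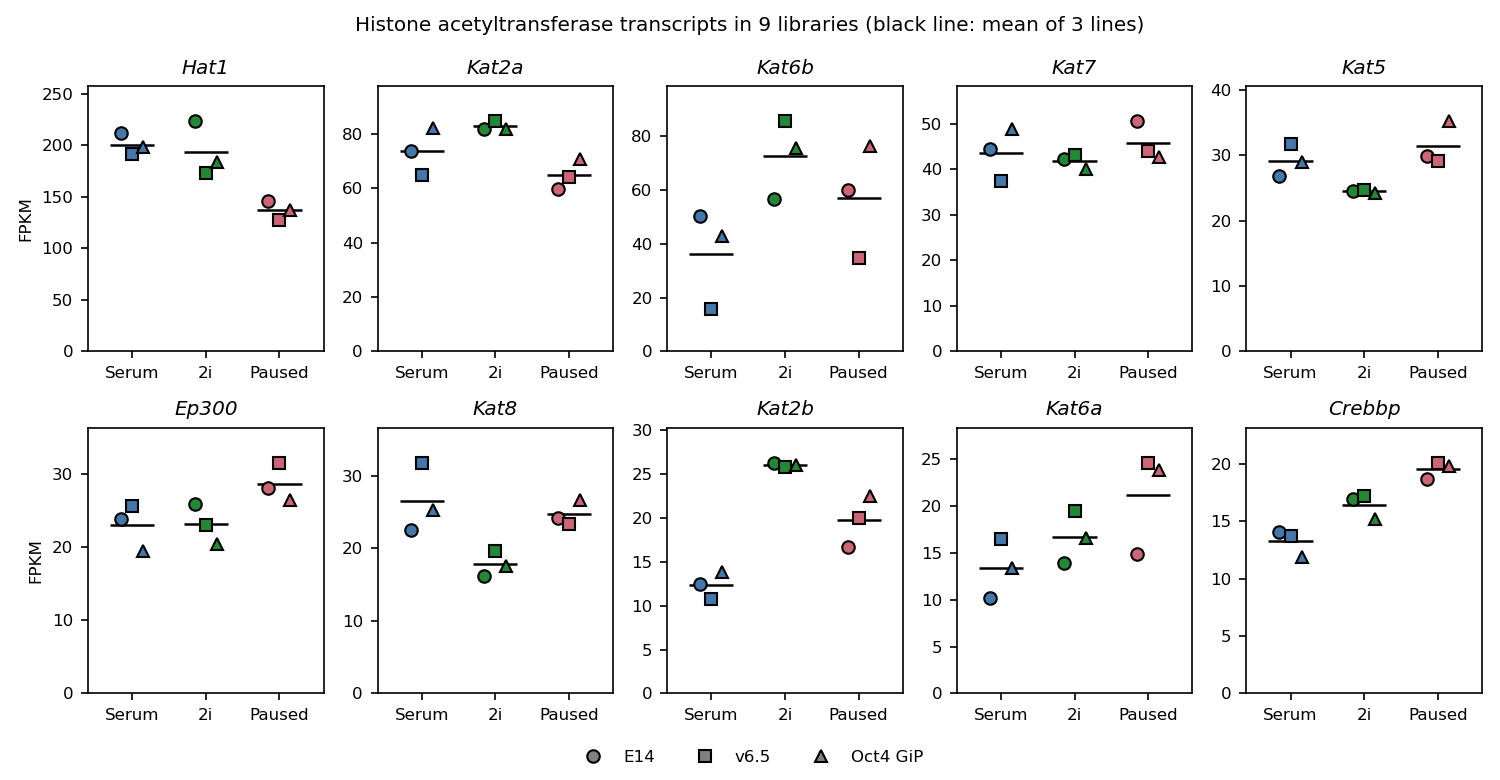
FPKM of the 10 histone acetyltransferase genes (vertical axes from 0, 1 panel per gene) in Serum, 2i and Paused, with 1 point per library, the shape giving the line and the black line the mean of 3 lines. The 3 Paused libraries of Hat1 sit between 128 and 146 FPKM, below the 6 others, and the 3 Serum libraries of Kat2b between 10.8 and 13.8, below the 6 others.

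Which of these transcripts differed between the culture states was asked in the 3 pairwise comparisons of conditions. In Paused against Serum, Kat2b, Kat6a and Crebbp rose and Hat1 fell, 4 of 10 genes called by limma at an adjusted p under 0.05, beside 18.2% of all tested genes (7.64% higher, 10.5% lower). In 2i against Serum, Kat2b and Crebbp rose and Kat8 fell, 3 of 10 beside 40.6% (21.7% higher, 18.9% lower). In Paused against 2i, Kat8, Kat5 and Ep300 rose and Hat1, Kat2a and Kat2b fell, 6 of 10 beside 44.4% (19.8% higher, 24.6% lower). The median log2 fold change of the 10 genes was 0.21, 0.09 and 0.18 in that order, beside -0.01, 0.02 and -0.03 over all tested genes. Over the 3 conditions together the F test called 7 of 10, all but Kat5, Kat6b and Kat7, beside 54.8% of tested genes, and 4 of 10 without the line as a block. These counts rest on few libraries. Paused against Serum had 0 of 10 called without any one Paused library or without Oct4 GiP in Serum, fits in which limma called 12 to 38 of all tested genes, and 2 without E14 or v6.5 in Serum. For 2i against Serum the count was 1 without v6.5 in Serum or Oct4 GiP in 2i. Paused against 2i had 1 without E14 or Oct4 GiP in Paused or v6.5 in 2i, and 3 without v6.5 in Paused or Oct4 GiP in Serum or 2i. The F test called 4 without Oct4 GiP in 2i. Without 1 whole line, the call of Kat2b in 2i against Serum was kept in 3 of 3 fits, that of Hat1 in Paused against 2i in 2 and those of Kat8 in 2i against Serum and in Paused against 2i in 1 each, and the 9 other pairwise calls in 0. The 3 comparisons share libraries in pairs, so that their values are not independent of each other. The libraries of the groups did not overlap for 4 of 10 genes in Paused against Serum (38.6% of all tested), for 5 in 2i against Serum (47.9%) and for 7 in Paused against 2i (51.9%). On the authors' scale, limma called 0 of 10 higher and 6 lower in Paused against Serum (0 higher and 7 lower at an unadjusted p under 0.05, where 79.2% of all stood), beside 0.378% higher and 76.9% lower of all tested genes. For 2i against Serum it called 1 higher and 4 lower there (9.76% and 35.7% of all), and for Paused against 2i 0 higher and 5 lower (6.21% and 54.5%; 0 and 5 at an unadjusted p under 0.05, beside 65.8% of all). The plot of fold changes sets both scales side by side.

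**Figure D2:**
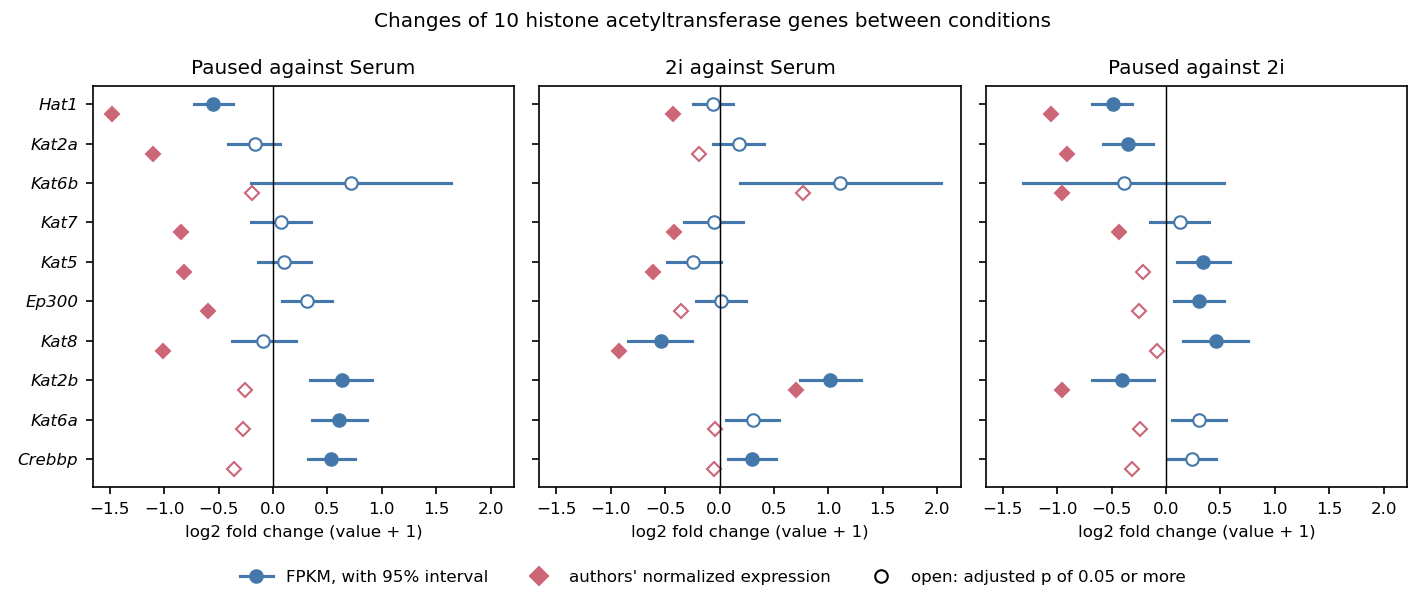
Log2 fold changes (horizontal axes, value + 1) of the 10 genes in the 3 comparisons, as circles for FPKM with the 95% interval of the limma fit and as diamonds for the authors' normalized expression; filled symbols have an adjusted p under 0.05. In Paused against Serum all 10 diamonds lie below 0, while Kat2b, Kat6a and Crebbp are called above 0 in FPKM.

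Kat8 (chromosome 7, 127912516 to 127925837, plus strand) was lowest in 2i. Its FPKM in E14, v6.5 and Oct4 GiP was 22.5, 31.8 and 25.3 in Serum, 16.2, 19.6 and 17.5 in 2i, and 24.2, 23.3 and 26.7 in Paused. All 3 libraries of 2i lay below the 6 others, and Serum and Paused overlapped, with v6.5 in Serum the highest. Kat8 in 2i against Serum fell by 0.54 ± 0.12 on the log2 scale (limma, SE; adjusted p = 0.0152), and by 0.92 on the authors' scale. The call was lost without the v6.5 Serum library (adjusted p = 0.051) or without the Oct4 GiP 2i library (0.0611). Paused against 2i gave a rise of 0.46 ± 0.12 (adjusted p = 0.0244), which became -0.08 on the authors' scale, and it was lost without any one of 5 libraries, those of E14 and Oct4 GiP in each condition and v6.5 in 2i (adjusted p up to 0.105). Paused against Serum gave -0.09 ± 0.12 (adjusted p = 0.645), with a positive value of 0.03 without the v6.5 Serum library and 0.06 without the v6.5 Paused library, and -1.01 on the authors' scale, where it was called. The last 122 bases of Kat8 overlap the serine protease gene Prss8 on the opposite strand, and whether counting used strand was not given in the sources used here, so reads there are uncertain.

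The genes whose levels followed Kat8 most closely were looked up among 7973 genes with a mean FPKM of at least 5, over the 9 libraries. They were Ccar1 (Pearson r = 0.97 of log2 values), Zcchc4 (0.965) and Srsf11, Aqr and Fundc2 (each 0.963). Ccar1 encodes a coactivator linked to cell cycle and apoptosis, Srsf11 a serine and arginine rich splicing factor, and Aqr an RNA helicase of the spliceosome. Ccar1 had means of 44.5 ± 6.42 FPKM (Serum), 33.1 ± 1.79 (2i) and 43.8 ± 1.04 (Paused; SD, n = 3). Aqr averaged 64.6 ± 12.6, 38.9 ± 1.78 and 59.5 ± 3.24 in that order. These 5 were the top of a ranking over 9 points that fall in 3 conditions and share libraries with Kat8, so that the values are descriptions.

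Kat8 works in 2 complexes, MSL and NSL, and their 12 other genes stood on 13 tested rows. For this list and those below, the shares of all tested genes called higher and lower serve as background. They were 7.64% and 10.5% in Paused against Serum, 21.7% and 18.9% in 2i against Serum, and 19.8% and 24.6% in Paused against 2i. For Paused against Serum limma called 0 of 13 rows (4 higher and 0 lower at an unadjusted p under 0.05), and on the authors' scale 0 higher and 11 lower. The 2 genes with the largest values there were Kansl1l at 0.35 ± 0.11 (adjusted p = 0.0739; -0.24 on the authors' scale) and Msl1 at -0.28 ± 0.17 (0.286). For 2i against Serum 3 rows rose and 0 fell (3 and 0 at an unadjusted p under 0.05), near the share of all tested genes called higher. On the authors' scale 1 row was called higher and 4 lower in that comparison. Wdr5, a scaffold shared with histone methyltransferase complexes, rose from 86.8 ± 20.3 to 166 ± 6.09 FPKM (0.95 ± 0.12 on the log2 scale, adjusted p = 0.00263). The NSL subunit Kansl3 rose from 13.1 ± 1.04 to 19.8 ± 1.59 FPKM, and Ogt, the O-GlcNAc transferase, from 25.8 ± 2.96 to 36.9 ± 2.37 FPKM. Between Paused and 2i Wdr5 fell by 0.84 ± 0.12 (adjusted p = 0.00298) and Ogt by 0.27 ± 0.09 (0.0449), while Phf20, a reader subunit of NSL, rose by 0.36 ± 0.10 (0.0278; -0.19 on the authors' scale). In FPKM, Kat8 and the partners Wdr5, Kansl3 and Ogt thus had called changes of opposite sign within 2i against Serum. The other rows of the list had no call in that comparison, and the median log2 fold change of the 13 rows was -0.03. On the authors' scale Wdr5 stood at 0.59, Kansl3 at 0.22 and Ogt at 0.15 there, and of these only Wdr5 was called. A second, low row named Wdr5 had no call in any comparison.

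Kat5 (chromosome 19, 5603014 to 5610237, minus strand), the catalytic subunit of NuA4/TIP60, was the gene with the tightest values in 2i. It had 26.8, 31.8 and 28.9 FPKM in Serum, 24.6, 24.7 and 24.3 in 2i, and 29.9, 29.2 and 35.3 in Paused, in E14, v6.5 and Oct4 GiP. All 3 libraries of 2i lay below the 6 others, while Serum and Paused overlapped. Kat5 rose in Paused against 2i by 0.34 ± 0.10 (adjusted p = 0.0343; -0.21 on the authors' scale), and 2i against Serum gave -0.24 ± 0.10 (0.104), called at -0.61 on the authors' scale. Paused against Serum gave 0.10 ± 0.10 (0.502), called at -0.82 there. The call in FPKM was kept in 3 of 9 fits without 1 library, and lost without the E14 or Oct4 GiP library of Serum or Paused or the v6.5 or Oct4 GiP library of 2i (adjusted p up to 0.133). Over the whole gene spans, introns included, Kat5 shares 4006 bases with Rnaseh2c on the opposite strand, more than any other of the 10 genes with an opposite neighbour. The overlap of exons was not measured. The kit was directional, but the use of strand in counting was not given, so how far the FPKM of Kat5 is affected is uncertain.

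Of the 16 NuA4/TIP60 partner genes, 4 rose and 3 fell in Paused against Serum, 1 rose and 6 fell in 2i against Serum, and 4 rose and 1 fell in Paused against 2i. The median log2 fold changes were 0.00, -0.11 and 0.11. On the authors' scale 0, 0 and 1 were called higher and 14, 9 and 8 lower in that order. Mbtd1, a reader subunit, had 26.8 ± 3.37 FPKM in Serum, 15.4 ± 0.991 in 2i and 38.1 ± 2.32 in Paused. It fell by 0.75 ± 0.11 in 2i against Serum (adjusted p = 0.00378) and rose by 1.25 ± 0.11 in Paused against 2i (0.000779), where it rose on the authors' scale too (0.73). Epc2, a scaffold subunit, had 12.1 ± 0.393, 9.90 ± 0.539 and 18.5 ± 0.826 FPKM and rose by 0.57 ± 0.08 in Paused against Serum (adjusted p = 0.0139; -0.31 on the authors' scale). The subunits Brd8 and Mrgbp also rose in Paused against 2i, by 0.36 ± 0.08 and 0.50 ± 0.08, and stood at -0.19 and -0.03 on the authors' scale. The ATPase subunit Ruvbl1 fell from 162 ± 3.58 FPKM in Serum to 101 ± 2.83 in 2i and 119 ± 10.8 in Paused (log2 fold changes -0.67 ± 0.08 and -0.45 ± 0.08, adjusted p = 0.00245 and 0.0219). Morf4l2 fell in both as well, by 0.50 ± 0.10 and by 0.42 ± 0.10.

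Kat6a, Kat6b and Kat7 share BRPF or JADE scaffolds. Kat6a (chromosome 8, 22859535 to 22943259) had 10.2, 16.5 and 13.4 FPKM in Serum, 13.9, 19.4 and 16.6 in 2i, and 14.9, 24.6 and 23.8 in Paused, in E14, v6.5 and Oct4 GiP. Each line was lowest in Serum and highest in Paused, and E14 was the lowest line in every condition, so that the groups overlapped. Kat6a in Paused against Serum rose by 0.61 ± 0.10 with the line as a block (adjusted p = 0.0177; -0.28 on the authors' scale). Without the block the call was lost (0.119). It was also lost without any one of 5 libraries, the E14 and Oct4 GiP libraries of Serum and all 3 of Paused (adjusted p up to 0.0908). Paused against 2i gave 0.30 ± 0.10 (adjusted p = 0.0515; -0.24 on the authors' scale) and 2i against Serum 0.31 ± 0.10 (0.0526; -0.04).

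Kat6b (chromosome 14, 21481434 to 21672478), the paralog of Kat6a, was the most variable of the 10 genes. It had 50.3, 15.8 and 43.0 FPKM in Serum, 56.7, 85.8 and 75.7 in 2i, and 59.9, 34.9 and 76.5 in Paused. The v6.5 line was lowest in Serum and in Paused and highest in 2i. In FPKM no comparison was called: 2i against Serum gave 1.11 ± 0.38 (limma adjusted p = 0.0581), Paused against Serum 0.72 ± 0.38 (0.225; -0.19 on the authors' scale) and Paused against 2i -0.39 ± 0.38 (0.436). On the authors' scale Kat6b was called lower in Paused against 2i (-0.96, adjusted p = 0.0452), with no overlap. Leaving out the v6.5 2i library made the SE smaller, with a call for Paused against Serum (0.72, adjusted p = 0.0472), and gave 0.14 for Paused against 2i. Leaving out the E14 Serum or the E14 2i library gave 1.47 for 2i against Serum (adjusted p = 0.0382 and 0.035).

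Kat7 (chromosome 11, 95274259 to 95310246), the third enzyme of this group, acetylates lysine 14 of histone H3 in many cell types. Its FPKM was 44.5, 37.5 and 48.9 in Serum, 42.2, 43.1 and 40.1 in 2i, and 50.7, 44.1 and 42.8 in Paused. These groups overlapped in each comparison, and the log2 fold changes lay between -0.05 and 0.13, each ± 0.11, with adjusted p from 0.401 to 0.733. On the authors' scale Kat7 was called lower in all 3 comparisons (-0.85, -0.42 and -0.43).

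Among the 9 BRPF and JADE partner genes, limma called 0 in Paused against Serum (2 higher and 1 lower at an unadjusted p under 0.05; 0 higher and 8 lower on the authors' scale), 2 higher and 1 lower in 2i against Serum, and 2 higher and 3 lower in Paused against 2i. Jade2, a scaffold usually linked to Kat7, fell from 9.61 ± 2.66 FPKM in Serum to 3.80 ± 1.57 in 2i (-1.16 ± 0.24 on the log2 scale, adjusted p = 0.0120) and stood at 11.6 ± 3.11 in Paused, a rise of 1.41 ± 0.24 over 2i (0.00536; 1.01 on the authors' scale). The bromodomain scaffolds Brd1 and Brpf3 had the opposite order. Brd1 rose from 27.9 ± 5.65 to 47.3 ± 1.06 FPKM in 2i (0.76 ± 0.12, adjusted p = 0.00484) and was at 31.5 ± 1.47 in Paused. Brpf3 rose from 18.3 ± 4.41 to 29.9 ± 9.63 FPKM in 2i (0.66 ± 0.15, 0.0147) and was at 16.6 ± 2.84 in Paused. Against 2i, in Paused, Brd1 fell by 0.57 ± 0.12, Brpf3 by 0.78 ± 0.15 and the small subunit Meaf6 by 0.41 ± 0.08.

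Kat2a and Kat2b encode the alternative catalytic subunits of SAGA and ATAC. Kat2b (chromosome 17, 53566861 to 53672720) had 12.5, 10.8 and 13.8 FPKM in Serum, 26.3, 25.8 and 26.0 in 2i, and 16.7, 20.0 and 22.5 in Paused, in E14, v6.5 and Oct4 GiP. The 3 conditions did not overlap for this gene, with Serum lowest and 2i highest in each line. Kat2b rose in 2i against Serum by 1.02 ± 0.12 (limma adjusted p = 0.00203), and by 0.70 on the authors' scale. That call was kept in 9 of 9 fits without 1 library. Kat2b also rose in Paused against Serum by 0.63 ± 0.12 (0.022; -0.26 on the authors' scale), a call lost without any one of the 6 libraries compared (adjusted p up to 0.0926), and fell in Paused against 2i by 0.40 ± 0.12 (0.0341). This last call was kept in 3 of 9 fits without 1 library, and lost without any Paused library, the E14 or v6.5 library of 2i or Oct4 GiP in Serum (adjusted p up to 0.132).

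Kat2a (chromosome 11, 100704746 to 100712465) had 73.7, 64.9 and 82.1 FPKM in Serum, 81.7, 84.9 and 82.0 in 2i, and 59.8, 64.3 and 70.8 in Paused. The 2i libraries lay above the Paused ones, and Serum overlapped both. Kat2a fell by 0.35 ± 0.10 in Paused against 2i (limma adjusted p = 0.0264), a call lost without any Paused library or the E14 or v6.5 library of 2i (adjusted p up to 0.114). The other comparisons gave -0.17 ± 0.10 (Paused against Serum, 0.24), called at -1.10 on the authors' scale (adjusted p = 0.000675), and 0.18 ± 0.10 (2i against Serum, 0.186; -0.19 on the authors' scale).

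The balance within this pair was read inside each library, where the scale between libraries drops out of the plain FPKM ratio. The ratio of Kat2a to Kat2b FPKM was 5.89, 5.99 and 5.94 in Serum, 3.11, 3.29 and 3.15 in 2i, and 3.58, 3.22 and 3.15 in Paused, in E14, v6.5 and Oct4 GiP. Serum lay apart from both other conditions, and 2i and Paused overlapped. On the log2(FPKM + 1) scale the difference from Serum was -0.84 in 2i and -0.80 in Paused, the same sign in 3 of 3 lines, each with an exact two-sided permutation p of 0.1 (0.18 after Benjamini-Hochberg over 9 ratio tests). A p of 0.1 is the smallest that 3 against 3 libraries allow, so that no such test can pass 0.05. Paused against 2i gave 0.05 (exact p = 0.6). The plot of paralog ratios shows this pair beside the other two.

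**Figure D3:**
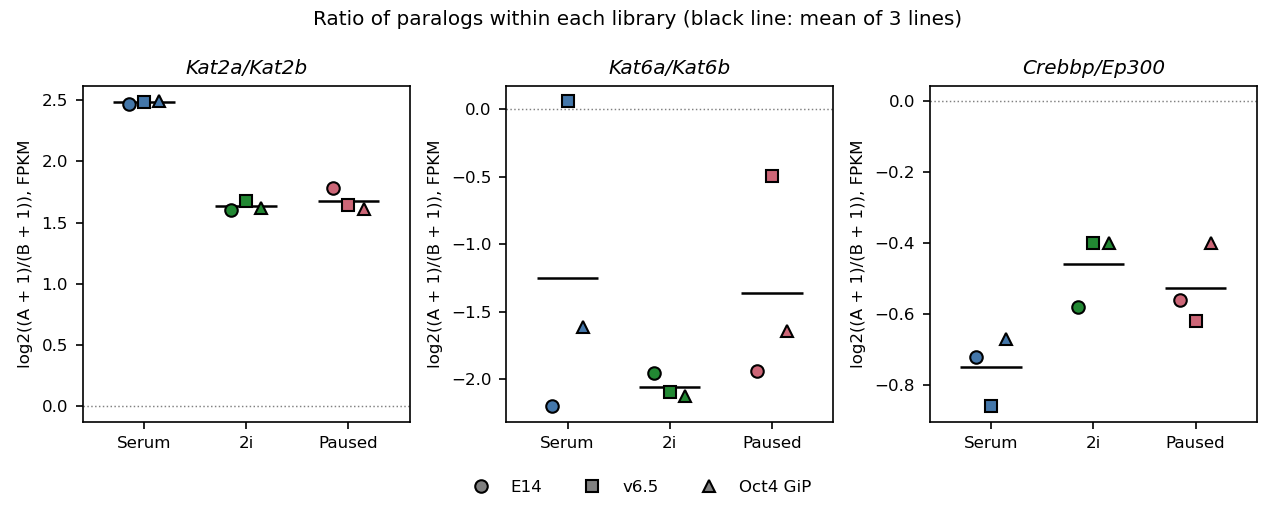
Log2 ratio of paralog pairs within each library (vertical axes, FPKM + 1; 1 panel per pair) in Serum, 2i and Paused, with 1 point per library, the shape giving the line and the black line the mean of 3 lines. The 3 Serum values of Kat2a to Kat2b (2.47 to 2.49) lie above all 6 others (1.60 to 1.78), and Kat6a to Kat6b in v6.5 Serum (0.06) stands above the E14 and Oct4 GiP Serum libraries (-2.20 and -1.61).

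For Kat6a and Kat6b the FPKM ratio in E14, v6.5 and Oct4 GiP was 0.203, 1.04 and 0.313 in Serum, 0.245, 0.226 and 0.220 in 2i, and 0.249, 0.703 and 0.311 in Paused. The v6.5 line carried the highest ratio in Serum and in Paused and not in 2i. The log2 ratio differed by 0.70 between Paused and 2i, with no overlap (exact p = 0.1, adjusted 0.18), and by -0.11 and -0.81 from Serum in Paused and 2i, with overlap (exact p = 0.8 and 0.4).

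Of the 22 SAGA and ATAC partner genes, 18 could be matched to a row of their own. Of these, 0 rose and 3 fell in Paused against Serum (0 and 4 at an unadjusted p under 0.05). Eny2, a subunit of the SAGA deubiquitinase module, fell from 135 ± 15.6 to 81.9 ± 5.71 FPKM (-0.71 ± 0.15 on the log2 scale, adjusted p = 0.0272). The histone-fold subunits Taf12 and Taf10 fell by 0.68 ± 0.09 and by 0.50 ± 0.10 (0.0135 and 0.0261). Against Serum, 2 of the 18 rose in 2i and 2 fell. The adaptor Tada3 rose from 41.9 ± 9.31 to 75.6 ± 16.6 FPKM (0.84 ± 0.22, 0.0245) and Atxn7 from 1.21 ± 0.223 to 2.35 ± 0.363. The deubiquitinase Usp22 fell from 47.1 ± 2.97 to 30.5 ± 7.46 FPKM (-0.64 ± 0.14, 0.0130), as did Taf10. In Paused against 2i 1 rose and 5 fell, with Usp22 up by 0.77 ± 0.14 (0.00612; 0.22 on the authors' scale) and Tada3 down to 29.1 ± 4.42 FPKM (-1.34 ± 0.22, 0.00461). On the authors' scale 0 of the 18 were called higher in any comparison. Called lower there were 17 in Paused against Serum, 7 in 2i against Serum and 15 in Paused against 2i.

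Crebbp (chromosome 16, 4081328 to 4213997) and Ep300 (chromosome 15, 81585351 to 81652077) had their highest means in Paused. Crebbp had 14.1, 13.7 and 11.9 FPKM in Serum, 16.9, 17.2 and 15.2 in 2i, and 18.7, 20.1 and 19.8 in Paused. The 3 conditions did not overlap for Crebbp, with the order Serum, 2i, Paused in each line. Crebbp rose in Paused against Serum by 0.53 ± 0.09 (limma adjusted p = 0.0183; -0.36 on the authors' scale) and in 2i against Serum by 0.30 ± 0.09 (0.0409; -0.05). The first call was lost without any one of 5 libraries (E14 in Paused, and v6.5 and Oct4 GiP in either condition; adjusted p up to 0.0941), and the second was lost in 9 of 9 fits without 1 library (adjusted p from 0.0506 to 0.162) and on centring each library on its median gene. Paused against 2i gave 0.24 ± 0.09 (0.0753; -0.31 on the authors' scale).

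Ep300 had 23.8, 25.6 and 19.4 FPKM in Serum, 25.8, 23.0 and 20.4 in 2i, and 28.0, 31.5 and 26.4 in Paused. The Paused libraries lay above those of the other conditions, which overlapped each other, and Oct4 GiP was the lowest line throughout. Ep300 rose in Paused against 2i by 0.30 ± 0.09 (limma adjusted p = 0.0411; -0.25 on the authors' scale), a call lost without the block (0.108) and in 8 of 9 fits without 1 library, all but the one without the E14 library of 2i (adjusted p up to 0.147). Paused against Serum gave 0.31 ± 0.09 (0.0655; -0.60 on the authors' scale, where it was called) and 2i against Serum 0.01 ± 0.09 (0.941; -0.35). The FPKM ratio of Crebbp to Ep300 was 0.592, 0.535 and 0.610 in Serum, 0.656, 0.748 and 0.746 in 2i and 0.669, 0.638 and 0.751 in Paused. Serum lay below both other conditions, by 0.29 for 2i and 0.22 for Paused on the log2 scale (exact p = 0.1 each, adjusted 0.18).

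Hat1 (chromosome 2, 71388958 to 71441622, plus strand) had the lowest levels in Paused. It had 212, 192 and 198 FPKM in Serum, 224, 173 and 184 in 2i, and 146, 128 and 137 in Paused, in E14, v6.5 and Oct4 GiP. All 3 Paused libraries lay below the 6 others, and Serum and 2i overlapped. Hat1 fell by 0.55 ± 0.08 in Paused against Serum (limma adjusted p = 0.0135) and by 0.49 ± 0.08 in Paused against 2i (0.00364). On the authors' scale these falls were 1.48 and 1.06, and both were called. The call against 2i was kept in 9 of 9 fits without 1 library, and the call against Serum in 5 of 9, lost without any one Paused library or the Oct4 GiP Serum library (adjusted p up to 0.0751). Hat1 in 2i against Serum had -0.06 ± 0.08 (0.573), called at -0.43 on the authors' scale.

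The histone chaperones that work with Hat1 on new histones were measured on 4 rows. For Paused against Serum limma called 0 of 4 (0 higher and 2 lower at an unadjusted p under 0.05), and on the authors' scale 0 higher and 4 lower. In FPKM, Rbbp7, the partner subunit of Hat1, stood at -0.36 ± 0.10 (adjusted p = 0.0511) and Rbbp4 at -0.31 ± 0.10 (0.0685). Against Serum, 3 of the 4 fell in 2i. Nasp, a chaperone of linker and core histones, fell from 315 ± 21.8 to 199 ± 28.9 FPKM (-0.67 ± 0.12, 0.0067), Rbbp7 from 208 ± 4.86 to 143 ± 25.5 and Asf1a from 29.8 ± 4.62 to 20.0 ± 0.776. In Paused against 2i Nasp rose to 338 ± 11.2 FPKM (0.77 ± 0.12, 0.00356; 0.21 on the authors' scale) and Asf1a rose by 0.33 ± 0.11 (0.0466; -0.21). In FPKM both moved opposite to Hat1 in the same comparison, and on the authors' scale Asf1a had the sign of Hat1. Rbbp7 and Rbbp4 were not called there in FPKM (0.19 ± 0.10 and -0.21 ± 0.10). On the authors' scale they stood at -0.37 and -0.77, and of the 4 rows only Rbbp4 was called.

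Over the 9 partner lists, 92 of 98 genes were matched and 92 rows were tested. Of these, 7 rose and 7 fell in Paused against Serum, 19 rose and 14 fell in 2i against Serum, and 14 rose and 18 fell in Paused against 2i, beside the shares of all tested genes given above. On the authors' scale the counts were 0 and 80, 4 and 32, and 2 and 60. The shares of all tested genes there were 0.378% and 76.9%, 9.76% and 35.7%, and 6.21% and 54.5%. The plot of partner genes shows each list in each comparison.

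Partner calls differed in how far they rested on single libraries, judged on those with the largest changes in each list. All 11 such calls in Paused against Serum were lost without any one of 4 libraries, the 3 Paused ones and Oct4 GiP in Serum (limma adjusted p up to 0.137). In 2i against Serum 15 of 30 were kept in 9 of 9 fits without 1 library, among them Wdr5, Kansl3, Ogt, Mbtd1, Ruvbl1, Jade2, Brd1, Nasp, Clock and Acss2. Brpf3 lost its call there without E14 or v6.5 in Serum, Tada3 without v6.5 or Oct4 GiP in Serum, Usp22 without these or Oct4 GiP in 2i, and Asf1a without Oct4 GiP in Serum (adjusted p up to 0.0688). Taf10 was kept in 2 of 9 fits, those without E14 in Serum or 2i (adjusted p up to 0.15). For Paused against 2i 16 of 28 were kept in 9 of 9, among them Wdr5, Mbtd1, Jade2, Brpf3, Tada3, Usp22, Nasp, Hdac7, Sirt1, Sirt4 and Acss2. Without E14 in Paused the calls of Brd8, Brd1 and Meaf6 were lost (adjusted p up to 0.0573). Phf20 lost its call without any library but the 3 of Serum and v6.5 in 2i (up to 0.104). Asf1a kept its call without E14 in Serum or 2i or v6.5 in Serum and Ogt without v6.5 in Serum, and each lost it otherwise (up to 0.17). Without the line as a block, the call of Hdac5 in Paused against Serum was lost (adjusted p = 0.1). So were those of Brpf3, Pdhb and Sirt4 in 2i against Serum (0.0842, 0.119 and 0.0636). In Paused against 2i, the calls of Phf20, Ogt, Asf1a and Slc25a1 were lost (0.0556 to 0.0907).

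**Figure D4:**
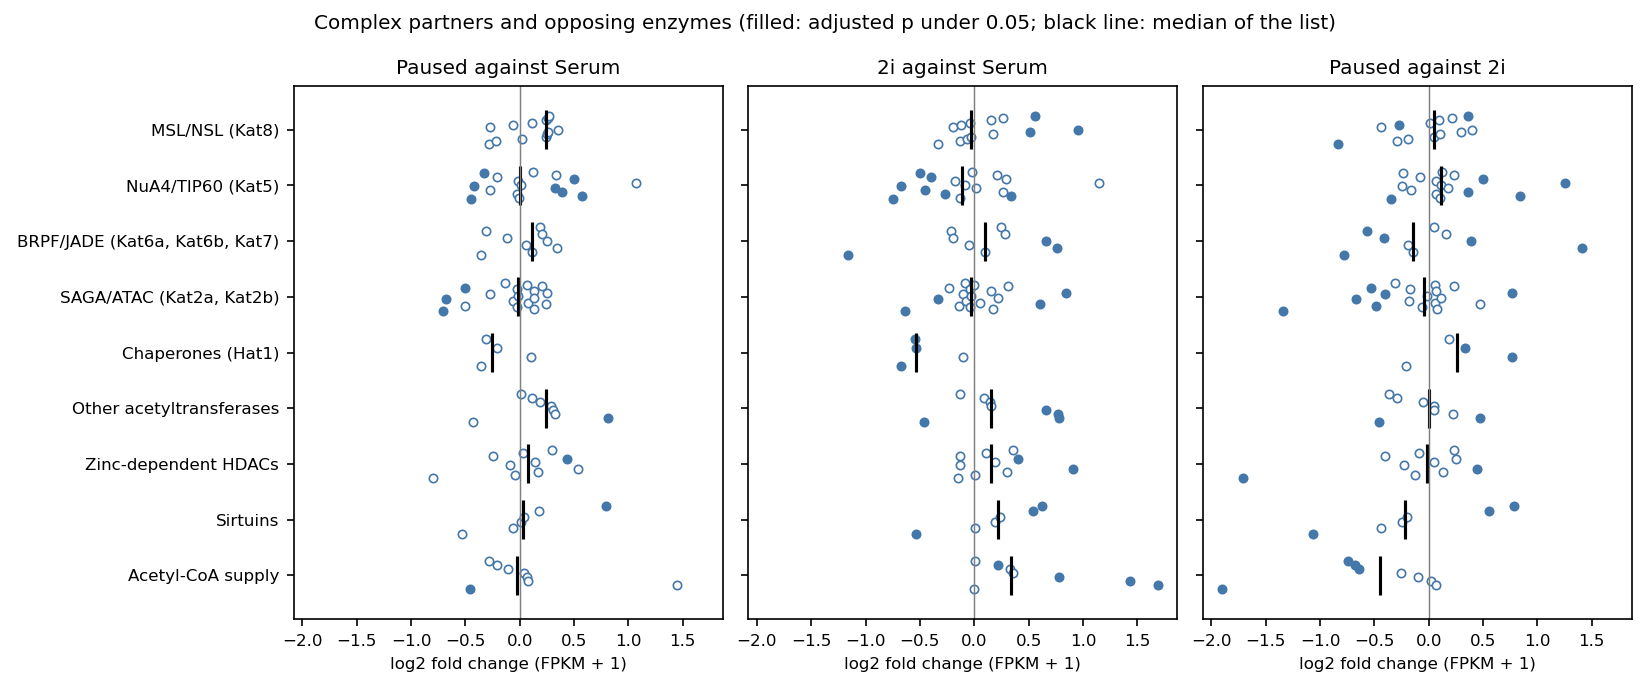
Log2 fold changes (horizontal axes, FPKM + 1) of the partner and opposing genes, 1 row per list and 1 point per tested row, in the 3 comparisons; filled points have an adjusted p under 0.05 and black lines are list medians. In 2i against Serum 3 of the 4 chaperone rows are called, all below 0, beside 18.9% of all tested genes called lower. On the authors' scale (not drawn), 0 of 92 rows are called above 0 in Paused against Serum, beside 0.378% of all tested genes.

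The remaining lists held enzymes of related or opposite activity. Of 8 other acetyltransferases that act on histones, 1 rose in Paused against Serum, Ncoa1, a coactivator of nuclear receptors, from 2.99 ± 1.12 to 5.85 ± 0.598 FPKM (0.81 ± 0.19, limma adjusted p = 0.0366). Under 2i against Serum 3 rose and 1 fell, and the circadian factor Clock rose from 1.65 ± 0.379 to 3.54 ± 0.277 FPKM. Of 10 tested zinc-dependent deacetylase rows, 1 rose and 0 fell in Paused against Serum (3 and 2 at an unadjusted p under 0.05), Hdac5 by 0.43 ± 0.09 (0.0255; -0.47 on the authors' scale). Hdac7 had 1.95 ± 1.13 FPKM in Serum, 4.28 ± 0.848 in 2i and 0.606 ± 0.169 in Paused, and it fell by 1.71 ± 0.28 in Paused against 2i (0.0044). Among 6 sirtuins, NAD-dependent deacylases, Sirt1 had 31.1 ± 5.16 FPKM in Serum, 31.0 ± 2.50 in 2i and 54.0 ± 0.396 in Paused. Sirt1 rose in Paused against Serum by 0.79 ± 0.13 (0.0178; -0.12 on the authors' scale) and in Paused against 2i by 0.78 ± 0.13 (0.00517; 0.24). The mitochondrial Sirt4 fell in Paused against 2i by 1.07 ± 0.16.

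Acetyl-CoA, the donor for all 10 enzymes, is made by citrate lyase, the pyruvate dehydrogenase complex and acetyl-CoA synthetases, among others. Of 8 tested rows of this list, 0 rose and 1 fell in Paused against Serum (1 and 1 at an unadjusted p under 0.05). In 2i against Serum 4 rose and 0 fell, and in Paused against 2i 0 rose and 4 fell. Acss2, the synthetase of cytosol and nucleus, had 2.28 ± 0.814 FPKM in Serum, 9.84 ± 3.74 in 2i and 1.84 ± 0.707 in Paused. It rose by 1.69 ± 0.15 in 2i against Serum (limma adjusted p = 0.00124) and fell by 1.90 ± 0.15 in Paused against 2i (0.000619), in both cases with the same sign on the authors' scale. Pdhb, a subunit of pyruvate dehydrogenase, fell from 306 ± 27.4 to 221 ± 7.50 FPKM in Paused against Serum (-0.46 ± 0.07, 0.0153). It was the only row of this list called there. Acss1, another synthetase, had 1.67 ± 0.819 FPKM in Serum, 6.51 ± 3.68 in 2i and 6.20 ± 1.68 in Paused. It rose by 1.43 ± 0.40 in 2i against Serum (0.0309). Paused against Serum gave 1.45 ± 0.40 for Acss1 (0.0521), which was not called.

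The lines were compared with condition means removed. The limma F test called 0 of 10 acetyltransferase genes, beside 1.5% of all tested genes, and 1 of 10 at an unadjusted p under 0.05, where 19% of all tested genes stood. That gene was Kat6a, lowest in E14 in each condition (adjusted p = 0.0767). Kat6b, whose v6.5 libraries were lowest in Serum and highest in 2i, had an adjusted p of 0.451 in this test of an effect common to all conditions.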

How the data were processed

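RNA of 9 mouse ES cell libraries, 3 conditions in each of 3 lines, was measured by sequencing after mRNA purification from 250 ng of total RNA with spike-in RNA and a directional kit (source: the labels' protocols). The table the authors deposited holds FPKM from Cuffnorm on mm10, per the submitters' processing notes, and a second column per library that equals FPKM times 1 constant, read here from the values. The origin of that constant, the aligner, the annotation and the use of strand were not given in the sources used here. Of 29801 rows, 5644 (18.9%) have no gene name (52.8% to 64.0% of summed FPKM). They were left out with 113 identical repeats, and 352 of the rows kept join several symbols. On 12711 named genes that reached FPKM 1 in 3 or more libraries, log2(FPKM + 1) was modelled by limma-trend (limma 3.58.1, R 4.3.3) over all 9 libraries with the line as a block, with Benjamini-Hochberg adjustment over all of them and 0.05 as the threshold. Fold changes on that log2 scale, given ± the limma standard error, are too small for low genes. The fit was tested on simulated data. The labels name the line, which gives the block: deviations from condition means correlated at -0.001 to 0.401 between libraries of 1 line and at -0.243 to 0.094 between lines. Named are all 10 genes, from each partner list up to 4 called genes per comparison with the largest change (2 where none was called), and the 5 genes most alike to Kat8. Other genes are named only as markers, neighbours or rows that could not be matched, and not every gene within the rule is reported. Members, lists, tests and alternatives were chosen with earlier results of these data known. Positions are from GENCODE on GRCm38. Of the partner genes, Atxn7l3, Taf6l, Taf9, Asf1b and Sirt7 stand on rows that join several symbols and were not used. The results of 1 further partner list are not reported here.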

Additional observations from a re-analysis of the deposited data

Results flagged for a closer look

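In 5 cases a gene had at least 1 line with a log2 change of 0.1 or more upward and at least 1 line with the opposite, under the same pair of conditions. With 1 library per line and condition, these differences between lines were not tested. In Paused against Serum, Kat8 ran from -0.43 in v6.5 to 0.10, Kat5 from -0.12 to 0.28 and Kat7 from -0.19 to 0.23. In 2i against Serum, Kat7 ran from -0.28 to 0.20 and Ep300 from -0.15 to 0.11.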

How the results depend on the processing

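The scale between libraries moved the most values. On the authors' scale 0 genes rose and 6 fell in Paused against Serum, 5 were called in 2i against Serum (1 higher, 4 lower), and 0 rose and 5 fell in Paused against 2i. Directions turned there, by construction of the constants, for Kat2b (-0.26), Kat5 (-0.82), Kat6a (-0.28), Kat6b (-0.19), Kat7 (-0.85), Crebbp (-0.36) and Ep300 (-0.60) in Paused against Serum. They turned for Kat2a (-0.19), Kat6a (-0.04), Crebbp (-0.05) and Ep300 (-0.35) in 2i against Serum, and for Kat5 (-0.21), Kat6a (-0.24), Kat7 (-0.43), Kat8 (-0.08), Crebbp (-0.31) and Ep300 (-0.25) in Paused against 2i. Over all genes 9827 in place of 2311 were called in Paused against Serum, 10894 in place of 6970 by the F test of conditions, and 63 in place of 191 by the F test of lines, which called 10 with no filter on low values.

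The median tested gene of a library stood at 3.65 to 3.67 (log2) in 2i and at 3.55 in Serum. Centring on it gave 1 higher and 2 lower in 2i against Serum, with Ep300 at -0.10, Kat5 called and Crebbp not, and 5 higher in Paused against 2i, with Kat6a and Crebbp called and Kat2b not (adjusted p = 0.0552). A fit to the 6 libraries compared left 1 higher in 2i against Serum and 2 called in Paused against 2i, 1 higher (Kat8) and 1 lower (Hat1), and called 2985 in place of 5161 of all genes in 2i against Serum; it has fewer samples. Other pseudocounts and filters left the counts of the 10 genes within 1.5 times.

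Without the replicate block of cell lines the F test of conditions called 4 of 10 genes (Kat2b, Kat8, Crebbp and Hat1). It ended the calls of Kat6a in Paused against Serum and of Ep300 in Paused against 2i, and no other pairwise call of these genes. Taken within lines, the paralog differences had the same sizes, with a smallest possible p of 0.25.

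Leaving out 1 library or 1 line, which leaves fewer samples, gave 0 to 5 genes called in Paused against Serum (0 to 4 higher, 0 to 1 lower), 1 to 3 in 2i against Serum (1 to 2 higher, 0 to 1 lower), 0 to 5 in Paused against 2i (0 to 3 higher, 0 to 3 lower) and 1 to 6 by the F test of conditions. Over all genes these fits called 4 to 3223, 1269 to 5436, 2073 to 5611 and 1243 to 7131. Values with no call changed sign for Kat7 (-0.03 to 0.20) and Kat8 (-0.18 to 0.09) in Paused against Serum, Kat7 (-0.18 to 0.07) and Ep300 (-0.06 to 0.09) in 2i against Serum, and Kat6b (-0.75 to 0.14) in Paused against 2i. So did the ratios of Kat2a to Kat2b (-0.02 to 0.09) and Crebbp to Ep300 (-0.11 to 0.01) in Paused against 2i, and of Kat6a to Kat6b (-0.29 to 0.11) in Paused against Serum. Read depth is unknown, so its limit on these values cannot be given.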
